A study of Mus musculus with 6 samples.

Results

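Distal sodium transport was followed through 10 genes, *Slc12a3*, *Scnn1a*, *Scnn1b*, *Scnn1g*, *Wnk1*, *Wnk4*, *Stk39*, *Klhl3*, *Nedd4l* and *Kcnj10*, which were taken by symbol from the 26903 genes of the count matrices, and all 10 were present in every library. The libraries came from single-cell RNA sequencing of renal cortex from 9-month-old mice, 3 wild type (WT) and 3 with a global *Prdm16* knockout (KO), with 1 library per mouse. In the KO mice exon 2 of *Prdm16* had been deleted with CRISPR-Cas9, which shifts the reading frame, no treatment is named for either group, and all mice were labelled male. The study names C57BL/6J for the mice it bought, and the background of the KO line was not given in the sources used here. The deletion was present in every cell of the body, so an effect in a tubule class cannot be told apart from an effect that reached it from elsewhere.

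The distal nephron sets the final sodium and potassium content of urine. The sodium chloride cotransporter NCC, encoded by *Slc12a3*, takes up salt at the luminal side of the distal convoluted tubule (DCT), and the epithelial sodium channel ENaC, built from the subunits of *Scnn1a*, *Scnn1b* and *Scnn1g*, takes up sodium in the connecting tubule (CNT) and in principal cells (PC) under control of aldosterone. WNK kinases act through the kinase SPAK, encoded by *Stk39*, to switch NCC on by phosphorylation. KLHL3 is the adaptor that hands WNK kinases to a ubiquitin ligase, NEDD4L is the ubiquitin ligase that removes ENaC from the membrane, and Kir4.1, encoded by *Kcnj10*, is the basolateral potassium channel that links blood potassium to this pathway.

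After filtering, 28594 cells were retained, 3554 to 6319 per library, with 23047861 to 35482068 unique molecular identifiers (UMIs, each counting 1 captured transcript) of the 96382945 to 121198131 in each matrix. No pair of libraries shared more than 2 cell barcodes. *Prdm16* itself was measured at 32.1, 26.7 and 27.1 CPM (counts of a gene scaled to a common UMI total) in WT replicates 1 to 3 against 21.1, 25.2 and 23.6 CPM in KO replicates 1 to 3, and since capture was at the 3′ end of transcripts, reads outside the deleted exon do not check the deletion. Not all libraries matched their label of sex. WT replicate 2 and KO replicate 1 carried *Xist*, the transcript that silences an X chromosome in females, at 297 and 307 CPM, against most 0.217 CPM in the other 4 libraries, and 4 Y-linked genes summed to at most 0.0609 CPM in these 2 libraries and to at least 109 CPM in the others. Results below are therefore also given for the 4 libraries that match the male label where this changes the call of a named gene.

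Cells of the distal nephron fell into 8 classes that were named by marker genes, none of which is among the 10 genes, and a name means only that the cells resembled that type. The classes held 11365 of the retained cells: thick ascending limb-like (TAL, 3752 cells), macula densa-like (361), early DCT-like (1497), late DCT-like (495), CNT-like (2125), PC-like (1524), type A intercalated-like (IC-A, 599) and type B and non-A intercalated-like (IC-B, 1012). Every class had at least 44 cells in every library. Late DCT cells held both *Calb1* and *Slc8a1*, which they share with the CNT, and early DCT markers such as *Sgms2* (457 CPM, against 307 CPM in early DCT and 87.7 CPM in CNT). Their cluster scored 1.22 on CNT markers and 1.18 on late DCT markers (mean z-score over clusters), and it was put with the DCT because its score on early DCT markers (1.01) exceeded that on PC markers (-0.29). Some clusters of named classes were led by stress genes, namely *Lif* and *Gdf15* in PC, *Rasd1* and *Gdf15* in CNT, and *Fosb* and *Jun* in a cluster of 68 early DCT cells. Between 8.99% and 20.1% of distal cells per library stayed unnamed, at 19.9%, 20.1% and 15.2% in WT and 17.0%, 8.99% and 17.0% in KO replicates 1 to 3.

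Promoter sequence was matched for 8 of the 10 genes, with windows of 300 bases from 250 bases before to 50 bases after the start site (RefSeq, GRCm38.p6). Shown are *Slc12a3*, the gene that separates DCT from the rest, *Kcnj10*, the gene with the firmest difference between WT and KO, and *Scnn1g* and *Scnn1b*, neighbours on chromosome 7 that differed together in IC-B. Capitals mark matches, on either strand, to 4 short motifs: AGAACA, the core of steroid receptor sites, found in 19.0% of 32851 mouse promoter windows; GTTAAT, bound by HNF1 factors, in 7.10%; AGATAA, bound by GATA factors, in 11.2%; and the TATA box TATAAA, in 13.6%.
Slc12a3, chr8:94328958-94329257, plus strand: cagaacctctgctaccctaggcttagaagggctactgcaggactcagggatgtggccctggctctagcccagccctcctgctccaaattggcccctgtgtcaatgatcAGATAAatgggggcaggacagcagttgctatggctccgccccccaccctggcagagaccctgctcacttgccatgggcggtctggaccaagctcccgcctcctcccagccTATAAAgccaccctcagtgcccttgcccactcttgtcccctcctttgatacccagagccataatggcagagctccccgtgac
Kcnj10, chr1:172340960-172341259, plus strand: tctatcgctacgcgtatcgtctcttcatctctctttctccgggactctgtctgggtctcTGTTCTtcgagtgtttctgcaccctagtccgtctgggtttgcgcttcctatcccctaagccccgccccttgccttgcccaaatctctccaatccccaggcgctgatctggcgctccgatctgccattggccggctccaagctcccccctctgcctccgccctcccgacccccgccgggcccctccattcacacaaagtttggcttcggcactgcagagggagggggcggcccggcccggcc
Scnn1g, chr7:121734229-121734528, plus strand: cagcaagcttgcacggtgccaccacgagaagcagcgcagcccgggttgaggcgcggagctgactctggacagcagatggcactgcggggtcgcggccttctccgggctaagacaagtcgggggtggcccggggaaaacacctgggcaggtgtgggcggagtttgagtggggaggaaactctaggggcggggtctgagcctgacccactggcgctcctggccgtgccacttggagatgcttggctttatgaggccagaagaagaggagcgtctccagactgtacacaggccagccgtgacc
Scnn1b, chr7:121864788-121865087, plus strand: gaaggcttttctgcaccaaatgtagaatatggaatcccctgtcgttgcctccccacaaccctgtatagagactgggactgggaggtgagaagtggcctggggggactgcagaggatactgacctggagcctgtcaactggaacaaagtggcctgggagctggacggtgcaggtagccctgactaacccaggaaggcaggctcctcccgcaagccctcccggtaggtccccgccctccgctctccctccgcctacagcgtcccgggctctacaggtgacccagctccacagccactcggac
The *Slc12a3* window held AGATAA beginning 142 bases before the start site and a TATA box beginning 32 bases before it, and only 4 CpG dinucleotides, against a median of 7 over all windows. The *Kcnj10* window held the steroid receptor core on the opposite strand, beginning 191 bases before the start site, and 21 CpG dinucleotides. Neither ENaC window held any of the 4 motifs, and they had 18 CpG dinucleotides in *Scnn1g* and 10 in *Scnn1b*. A match is a description of these letters and not a bound site.

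The first question was where along the distal tubule each gene is expressed. Levels are CPM, the UMIs of a gene scaled to all UMIs of its class in a library, and are given as the mean ± SD over the 6 libraries with both genotypes together. They are descriptions without a test, and levels of different genes are not compared with each other, since capture at the 3′ end differs between genes. The UMI total of a class includes mitochondrial UMIs. Their median share per cell over the libraries was 39.7% to 43.6% in TAL, 39.3% to 45.8% in late DCT and 24.5% to 31.5% in PC. The part of this share in the order of classes was not tested.

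*Slc12a3* (chromosome 8, 94329201 to 94366214 on GRCm38, as for the positions that follow) marked the DCT. Its level was 3313 ± 343 CPM in early DCT and 1889 ± 282 CPM in late DCT, and the ranges of these classes did not overlap (2911 to 3767 against 1442 to 2224). In the other 6 distal classes it lay between 17.2 and 45.5 CPM, below the 104 CPM of endothelial cells and the 123 CPM of proximal tubule cells, which do not make NCC, so these class values are read as background. Within TAL, however, the cluster of low UMI count, 1139 of the 3752 cells, held *Slc12a3* at 652 to 1160 CPM over the 6 libraries, above that background, while the other TAL clusters held 10.1 to 43.5 CPM. What these low-count cells are was not tested, and the TAL results of the 10 genes are given with and without them where this changes a call. The genes most like it across the 15 classes with a level were *Htr3a* (Pearson r = 0.87 on log2(CPM + 1)), *Pvalb* (0.85), a DCT marker that helped name the class, and *Lrrc52* (0.85).

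From early DCT to CNT the 3 ENaC subunit genes were higher where *Slc12a3* was lower, but not in step, while in TAL and macula densa all were lower than in early DCT. *Scnn1a* (chromosome 6, 125320659 to 125344943) was present in every distal class, from 282 ± 70.1 CPM in macula densa and 518 ± 104 CPM in TAL to 1107 ± 203 CPM in CNT and 1707 ± 319 CPM in PC. *Scnn1b* (chromosome 7, 121865038 to 121918514) went from 27.1 ± 4.72 CPM in early DCT to 199 ± 16.6 CPM in late DCT, 747 CPM in CNT (613 to 934 CPM over the libraries) and 795 ± 163 CPM in PC. *Scnn1g* (chromosome 7, 121734479 to 121768475, ending 96562 bases before *Scnn1b* begins) went from 6.23 ± 2.64 CPM in early DCT to 193 ± 19.7 CPM in late DCT, 607 ± 82.3 CPM in CNT and 527 ± 87.6 CPM in PC. Late DCT was therefore the class in which *Slc12a3* and all 3 subunit genes were present together. For *Scnn1b* and *Scnn1g* the ranges of late DCT and CNT did not overlap, while those of CNT and PC did.

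**Figure D1:**
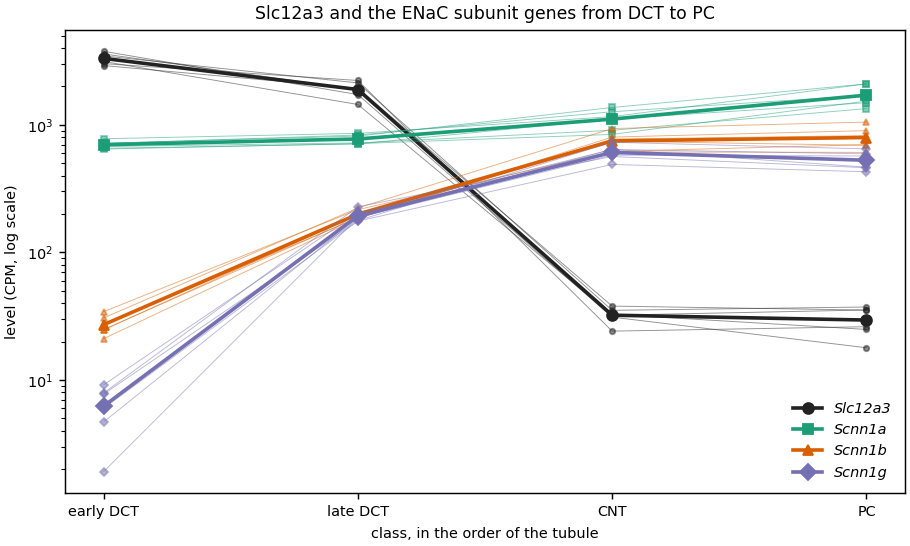
Level in CPM (log scale) of *Slc12a3* and the 3 ENaC subunit genes in early DCT, late DCT, CNT and PC, where thin lines are the 6 libraries and thick lines their means. *Slc12a3* stood at 1889 CPM in late DCT and 32.2 CPM in CNT, *Scnn1b* and *Scnn1g* were higher in late DCT than in early DCT and higher again in CNT, and *Scnn1a* was already at 697 CPM in early DCT. Heights of different genes are not to be compared.

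Intercalated cells, which secrete acid or base, also held ENaC transcripts, and the subunits differed among them. *Scnn1a* was at 995 ± 100.4 CPM in IC-B and 701 ± 125 CPM in IC-A. *Scnn1b* was at 158 ± 65.6 CPM and 175 ± 34.9 CPM in these classes. *Scnn1g*, in contrast, was at 106 ± 41.4 CPM in IC-B but at 16.7 ± 5.62 CPM in IC-A, where it overlapped the range of proximal tubule cells. The PC marker *Aqp2* averaged 732 CPM in IC-B and 94.8 CPM in IC-A, against 7882 CPM in PC. The 5 CNT markers summed to means of 12963.5 CPM in WT and 8553 CPM in KO in IC-B, against 43394 and 33499 CPM in CNT. In IC-A these sums were 3575 and 2155 CPM. The part of PC and CNT transcripts in the ENaC levels of IC-B was not tested. *Scnn1b* and *Scnn1g* were among the 3 genes most like each other over the 15 classes (r = 0.95), beside *Rhcg* (0.97) and *A930017K11Rik* (0.93) for *Scnn1b*, and *Hsd11b2* (0.96) and *Kcne1* (0.95) for *Scnn1g*. The genes most like *Scnn1a* were *Cldn8* (0.98), *Six4* (0.98) and *Cdkl1* (0.97).

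The kinases and their adaptor were highest in the DCT, apart from SPAK. *Wnk1* (chromosome 6, 119923969 to 120038672, minus strand) stood at 1797 ± 225 CPM in late DCT and 1475 ± 212 CPM in early DCT, whose ranges overlapped, then at 494 ± 196 CPM in CNT and only 90.0 ± 14.7 CPM in PC. The kidney uses a short form of *Wnk1* without the kinase domain, made from an internal promoter, and counts of 3′ ends do not tell the forms apart. *Wnk4* (chromosome 11, 101260567 to 101277409) was at 199 ± 14.4 CPM in early DCT and 150.2 ± 17.9 CPM in late DCT, without overlap, and at 119 ± 16.1 CPM in TAL. *Klhl3* (chromosome 13, 58000228 to 58113592, minus strand) was at 286 ± 35.7 CPM in early DCT and 199 ± 43.8 CPM in late DCT, and the next class, macula densa, had 46.7 ± 14.0 CPM.

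*Stk39* (chromosome 2, 68210445 to 68472268, minus strand) was spread over all distal classes. Its level was 256 ± 31.1 CPM in PC, 220.3 ± 49.5 CPM in macula densa, 178 ± 31.7 CPM in early DCT and 169 ± 14.2 CPM in TAL, and each of these classes overlapped its neighbour in the order. The lowest distal level, in IC-B, was 88.2 ± 5.89 CPM. *Wnk1*, which was also found in macrophages (499 ± 105 CPM), had no close match in pattern, the nearest being *Eif2ak1* (r = 0.77), *Sall3* (0.74) and *Klhl3* (0.73). *Wnk4* was most like *Prom2* (0.97), *Inpp5j* (0.96) and *Gm17546* (0.96), *Stk39* most like *Tesc* (0.94), *Cobll1* (0.93) and *Mboat1* (0.90), and *Klhl3* most like *Mir670hg* (0.89), *Htr3a* (0.88) and *Ermp1* (0.88).

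*Nedd4l* had an order of its own among the 10 genes, with PC (297 ± 62.4 CPM), IC-A (284 ± 49.9 CPM) and IC-B (253 ± 26.7 CPM) on top with overlapping ranges. CNT followed at 149 ± 41.5 CPM, and early DCT had 55.3 ± 2.39 CPM. Patterns close to it were those of *Cox7a1* (0.92) and *Ovol1* (0.91).

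*Kcnj10* (chromosome 1, 172341210 to 172374085) was found from the DCT to the PC, at 207 ± 33.6 CPM in CNT, 177 ± 26.4 CPM in late DCT, 169.9 ± 11.6 CPM in early DCT and 120 ± 50.2 CPM in PC. All 4 ranges overlapped their neighbours. TAL had 56.2 ± 11.4 CPM, and its clusters differed: one led by *Egf* and *Cldn16* held 116 to 143 CPM over the 6 libraries, one led by *Cldn10* and *Umod* held 5.81 to 17.8 CPM, and one of low UMI count held 28.0 to 70.7 CPM. In IC-A (8.44 ± 3.03 CPM) and macula densa (3.88 ± 3.08 CPM) it overlapped the range of macrophages. Its nearest patterns were those of *Tmem52b* (0.96), *Defb11* (0.94) and *E230016K23Rik* (0.91).

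**Figure D2:**
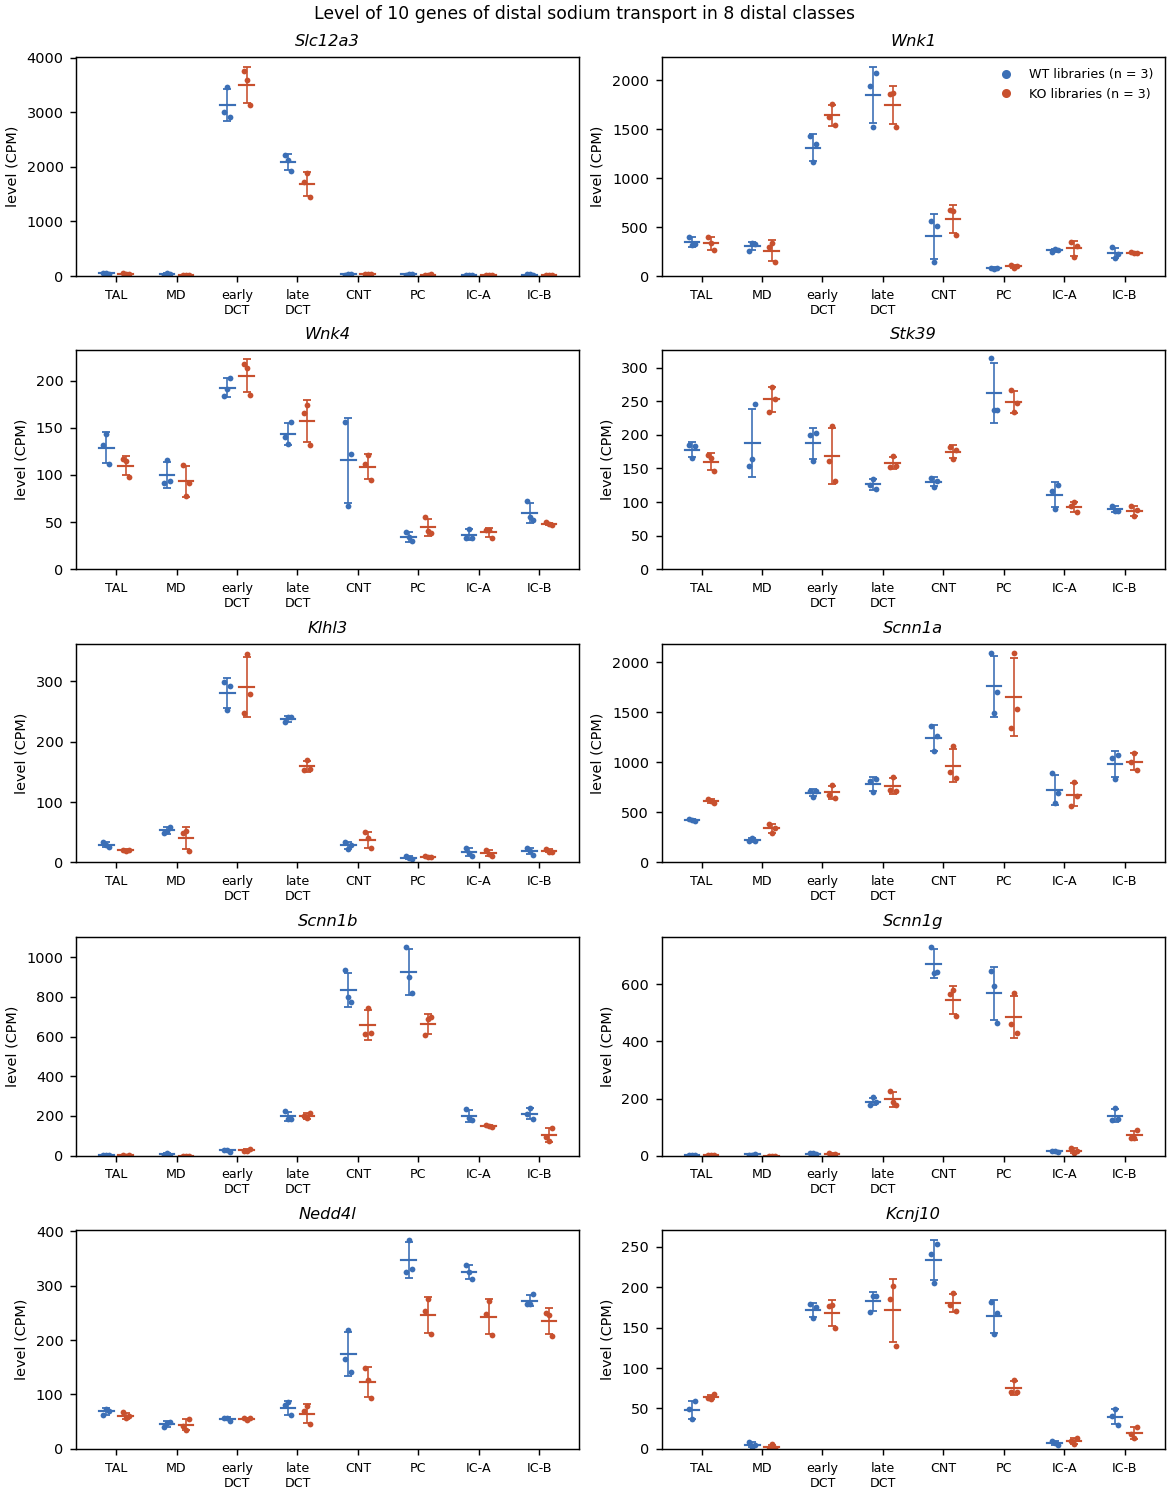
Level in CPM of each of the 10 genes in the 8 distal classes (MD, macula densa), where points are libraries, horizontal bars the mean and error bars the SD of 3 WT and 3 KO libraries. *Slc12a3*, *Wnk1*, *Wnk4* and *Klhl3* are highest in the DCT, *Scnn1b* and *Scnn1g* in CNT and PC, and *Kcnj10* in PC is lower in every KO library (70.7 to 85.5 CPM) than in every WT library (142 to 182 CPM).

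To ask what loss of *Prdm16* changed, UMIs were summed per library and class, 3 sums per genotype were compared by edgeR with its quasi-likelihood test, and a gene was called when its p-value, adjusted over all genes of the class, was under 0.05. Of 80 pairs of gene and class, 76 had enough counts to be tested, and 8 were called, 2 higher and 6 lower in KO. *Scnn1b*, *Scnn1g* and *Kcnj10* in macula densa, with 14, 9 and 15 UMIs, and *Scnn1g* in TAL, with 58 UMIs, fell under the filter on low counts. The exact permutation test over libraries gave p = 0.1 for each of the 8 called pairs, the smallest value that 3 libraries against 3 allow. Any pair whose groups do not overlap gets this same value, so lack of overlap, where given below, is a description and not a call. The share of all genes without overlap was not counted. By class, the calls were 3 of 9 genes in TAL (background over all genes 4.35%), 1 of 7 in macula densa (1.02%), 1 of 10 in late DCT (1.01%), 1 of 10 in PC (2.39%) and 2 of 10 in IC-B (0.777%). No gene was called in early DCT (background 1.29%), CNT (2.95%) or IC-A (0.373%), and DESeq2 called 0 there as well. In these classes 1, 6 and 2 of 10 genes had an unadjusted p under 0.05 by edgeR. Over all genes the same held for 975 of 9276, 1332 of 10152 and 603 of 7782. The median log2 fold change of the tested genes lay between -0.19 and 0.05 over the 8 classes, beside medians between -0.0025 and 0.0075 over all genes.

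**Figure D3:**
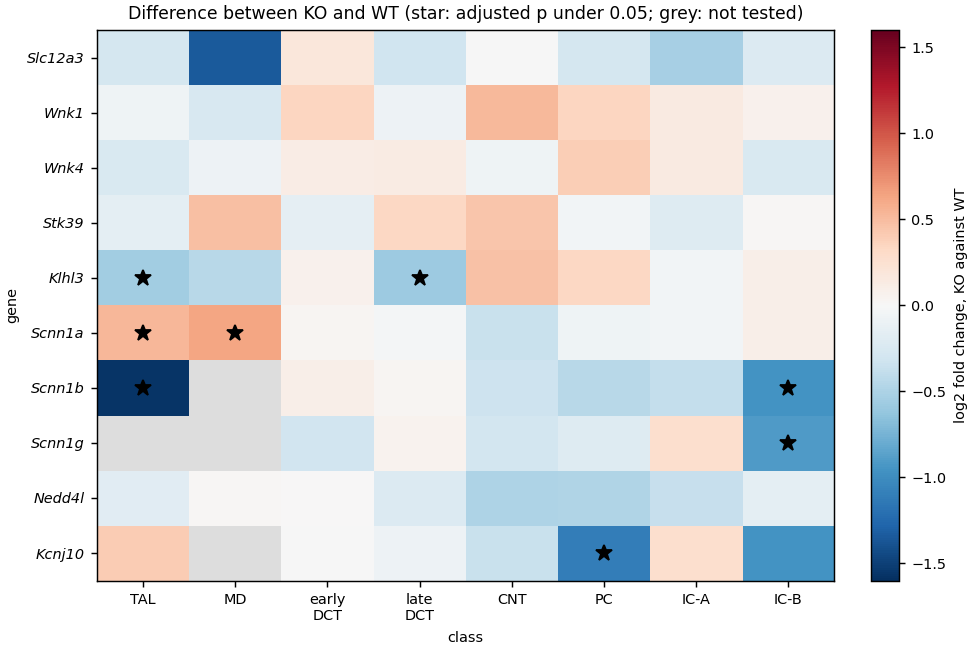
Colour map of the log2 fold change, KO against WT, of the 10 genes (rows) in the 8 distal classes (columns; MD, macula densa), with stars for the 8 called pairs and grey for the 4 pairs not tested. Blue cells are lower in KO, and the *Kcnj10* row is blue from CNT to PC and red in TAL.

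*Kcnj10* in PC was the firmest difference. It reached 182, 142 and 168 CPM in WT replicates 1 to 3 against 70.8, 85.5 and 70.7 CPM in KO replicates 1 to 3. Every KO library lay below every WT library. The log2 fold change was -1.10 ± 0.15 (SE, 3 libraries per group), and the adjusted p by edgeR was 0.00335. It was called under all 17 alternative settings, with adjusted p from 6.42e-09 to 0.0226, including the 4 libraries that match the male label. Within the deeper PC cluster alone, led by *Mcoln3* and *Aqp2*, the levels were 190.1, 148 and 172 CPM in WT against 72.8, 87.5 and 72.4 CPM in KO.

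Other transcripts moved with *Kcnj10* in PC. The 5 CNT markers summed to 2155, 2614 and 1893 CPM in WT against 1371, 791 and 1677 CPM in KO, and all 5 were detected. Early DCT markers summed to 756, 911 and 755 CPM in WT against 355, 407 and 498 CPM in KO. CNT and DCT cells hold *Kcnj10* at levels of the same order as PC, and the part of these transcripts in the difference was not tested. The median UMI count per PC was 4345, 4495 and 4357 in WT and 8309, 6932 and 6102 in KO, whose part was not tested either.

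In CNT, *Kcnj10* was at 240.4, 205 and 253 CPM in WT against 178, 193 and 170.4 CPM in KO, without overlap, but the log2 fold change of -0.36 ± 0.14 did not pass (adjusted p = 0.243). In IC-B it was at 40.3, 48.9 and 30.1 CPM in WT against 18.3, 13.0 and 27.1 CPM in KO (-0.96 ± 0.25, adjusted p = 0.127). The groups did not overlap there, and without KO replicate 3 the adjusted p was 0.0395. In TAL the sign was the opposite: 49.4, 36.6 and 58.7 CPM in WT against 63.1, 61.9 and 67.6 CPM in KO (0.41 ± 0.15, adjusted p = 0.166), and without WT replicate 3 the adjusted p was 0.0397. The *Cldn16* cluster made up 24.96%, 22.5% and 26.0% of TAL cells in WT against 26.1%, 31.4% and 33.9% in KO, and within it *Kcnj10* was at 116, 118 and 143 CPM in WT against 139, 131 and 134 CPM in KO, which overlap. The effect of genotype on *Kcnj10* differed between the 8 classes in a joint fit with the mouse as a block (adjusted p = 2.73e-05), in which 6.34% of all genes were called.

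*Scnn1a* was higher in KO at the upstream end of the distal nephron. In TAL it stood at 438, 420.4 and 413 CPM in WT replicates 1 to 3 against 630.0, 611 and 597 CPM in KO replicates 1 to 3. The groups were far apart relative to their spread, at 0.53 ± 0.076 on the log2 scale (adjusted p = 0.00197), and the call held with any 1 library left out (highest adjusted p 0.0104). KO libraries were the higher ones in both deep TAL clusters, at 413, 389 and 398 CPM against 649.6, 612 and 577 CPM in the *Cldn10* cluster and at 477, 497 and 439 CPM against 613, 609 and 628 CPM in the *Cldn16* cluster. In the TAL cluster of low UMI count the groups overlapped, at 497, 452 and 487 CPM in WT against 495, 603 and 503 CPM in KO, and without that cluster the TAL call stood (0.54, adjusted p = 0.00176). *Aqp2* was at 4.39 to 13.1 CPM in TAL and the PC markers together were lower in KO, at 57.9, 53.1 and 61.8 CPM against 41.9, 28.2 and 29.0 CPM. The 5 CNT markers in TAL summed to 3029, 3664 and 3297 CPM in WT against 3839, 2982 and 3602 CPM in KO, which overlap. The part of transcripts of other classes in the *Scnn1a* difference was not tested.

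In macula densa, the cells that sense luminal salt, *Scnn1a* was at 215, 242 and 212 CPM in WT against 379, 297 and 345 CPM in KO. All KO libraries exceeded all WT libraries (0.63 ± 0.15, adjusted p = 0.0462). These sums rest on 45 to 73 cells per library, and the call was lost without either of WT replicates 1 and 3 or KO replicate 1 or 3 (adjusted p 0.160 to 0.197), with DESeq2 (0.145) and in the 4 libraries that match the male label (0.126). The TAL marker *Umod* was also higher in KO in this class, at 4249, 3136 and 1894 CPM in WT against 4997, 5284 and 4467 CPM in KO, as was the macula densa marker *Pappa2*, at 278, 191 and 306 CPM against 810, 658 and 420 CPM, while the 8 TAL markers together overlapped (7696 to 10607 CPM in WT and 9814 to 10807 CPM in KO). Their part in the *Scnn1a* difference was not tested.

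In the classes where ENaC is best known, *Scnn1a* did not pass the test. It was at 1366, 1110 and 1265 CPM in WT against 905, 1158 and 840.1 CPM in KO in CNT (-0.36 ± 0.16, adjusted p = 0.342), where the groups overlap. In PC it was at 2090, 1489 and 1701 CPM in WT against 1338, 2092 and 1534 CPM in KO (-0.07 ± 0.18, adjusted p = 0.922, 95% interval -0.42 to 0.29), and the sign turned without WT replicate 1 (0.03) or KO replicate 1 (0.08). The genotype effect on *Scnn1a* differed between classes in the joint fit (adjusted p = 0.000529).

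*Scnn1b* and *Scnn1g* were lower in KO in IC-B. *Scnn1b* was at 211, 242 and 183 CPM in WT against 95.1, 76.3 and 141 CPM in KO, without overlap (-0.96 ± 0.20, adjusted p = 0.0455). *Scnn1g* was at 125, 167 and 128 CPM in WT against 61.8, 63.2 and 89.4 CPM in KO, again without overlap (-0.90 ± 0.18, adjusted p = 0.0352). *Scnn1a* in the same cells was at 1041, 833 and 1076 CPM in WT against 999, 1096 and 923 CPM in KO, which overlap.

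These calls rested on few libraries and moved with markers of neighbouring cells. The *Scnn1b* call was lost without KO replicate 1 (adjusted p = 0.229) or KO replicate 2 (0.223) and without WT replicate 1 (0.0559), 2 (0.168) or 3 (0.109), and the *Scnn1g* call was lost without WT replicate 2 (0.142) or 3 (0.104) and without KO replicate 1 (0.192) or 2 (0.208). In the 4 libraries that match the male label neither was called (0.561 and 0.485). All 9 PC markers were detected in IC-B and summed to 3161, 4219 and 2888 CPM in WT against 1572, 1835 and 2406 CPM in KO. The 5 CNT markers summed to 15320, 11963 and 11608 CPM in WT against 8997, 4359 and 12304 CPM in KO. KO replicate 3, the highest KO library for *Scnn1b* and *Scnn1g*, was also the highest for both marker sums, and their part in the difference was not tested.

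In CNT, *Scnn1b* was at 934, 801 and 772 CPM in WT against 613, 743 and 618 CPM in KO (-0.33 ± 0.14, adjusted p = 0.323). *Scnn1g* was at 729, 641 and 642 CPM in WT against 564, 578 and 489 CPM in KO (-0.29 ± 0.13, adjusted p = 0.351). Neither overlapped between groups, and neither passed after adjustment. In PC, *Scnn1b* was at 1050.0, 899.5 and 822 CPM in WT against 607, 690.3 and 699 CPM in KO (-0.44 ± 0.13, adjusted p = 0.121). *Scnn1g* in PC was at 647, 592 and 465 CPM in WT against 460.5, 569 and 428 CPM in KO, which overlap (-0.20 ± 0.14, adjusted p = 0.605, 95% interval -0.48 to 0.08). The joint fit called a difference between classes for both *Scnn1b* (adjusted p = 0.000731) and *Scnn1g* (0.0180).

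*Scnn1b* in TAL also passed, at 3.98, 4.70 and 3.74 CPM in WT against 2.14, 0.653 and 1.42 CPM in KO (-1.57 ± 0.36, adjusted p = 0.0272). Podocytes, which lack ENaC, held 2.53 ± 1.36 CPM over the 6 libraries, and these values are therefore read as background and not as expression. The call was lost without any 1 WT replicate (adjusted p 0.0619 to 0.101), without KO replicate 2 (0.0747) or 3 (0.0967), and in the 4 libraries that match the male label (0.0830).

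*Klhl3* was lower in KO in late DCT. It held 233, 241 and 240.5 CPM in WT replicates 1 to 3 against 153, 170.3 and 154 CPM in KO replicates 1 to 3. The WT libraries lay close together and above each KO library (-0.58 ± 0.12, adjusted p = 0.0234). The call was lost without WT replicate 1 (adjusted p = 0.105) or 3 (0.0848) and without KO replicate 1 (0.159) or 2 (0.0573), and in the 4 libraries that match the male label (0.167). In early DCT, where *Klhl3* was highest, it did not pass, with 298, 253 and 292 CPM in WT against 248, 346 and 278 CPM in KO (0.06 ± 0.13, adjusted p = 0.936, 95% interval -0.20 to 0.32), and the sign turned without WT replicate 2 (-0.01) or KO replicate 2 (-0.06).

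The late DCT cells themselves were not alike in the groups. They numbered 114, 101 and 119 in WT and 68, 49 and 44 in KO. *Calb1* was at 10059, 7686 and 10888 CPM in WT against 5540, 4855 and 5390 CPM in KO, the PC markers, 7 of 9 of them detected, summed to 985, 1090.5 and 1076 CPM against 1304, 1584 and 1277 CPM, and the early DCT markers *Pvalb* and *Cnnm2*, which late DCT does not count among its own markers, summed to 95.4, 96.1 and 97.6 CPM against 83.0, 70.6 and 67.0 CPM. In early DCT *Calb1* went the other way, at 788, 606 and 1072 CPM in WT against 2596, 2501 and 2515 CPM in KO. The part of these shifts in the *Klhl3* difference was not tested.

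*Klhl3* was lower in KO in TAL too, at 34.2, 28.8 and 25.6 CPM in WT against 21.4, 18.4 and 20.3 CPM in KO (-0.55 ± 0.13, adjusted p = 0.0306). The groups did not overlap. In the *Cldn16* cluster the levels were 32.7, 28.9 and 30.1 CPM in WT against 13.2, 11.1 and 15.4 CPM in KO, and in the *Cldn10* cluster they were 32.2, 26.0 and 21.3 CPM against 24.9, 23.4 and 22.9 CPM, which overlap. The call was lost without WT replicate 1 (adjusted p = 0.117) or 2 (0.0671), without KO replicate 1 (0.0717), 2 (0.0825) or 3 (0.0801), in the 4 libraries that match the male label (0.123) and without the TAL cluster of low UMI count (0.0505), in which the levels were 84.5, 83.9 and 80.2 CPM against 39.7, 25.4 and 54.1 CPM. In TAL as a whole the late DCT markers summed to 809, 751 and 737 CPM in WT against 639, 572 and 676 CPM in KO. The early DCT markers summed to 590, 558 and 648 CPM against 480, 530 and 600 CPM, which overlap. DCT cells hold *Klhl3* at higher levels than TAL, and the part of these transcripts in the difference was not tested. Differences between classes were called for *Klhl3* in the joint fit (adjusted p = 0.00945).

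**Figure D4:**
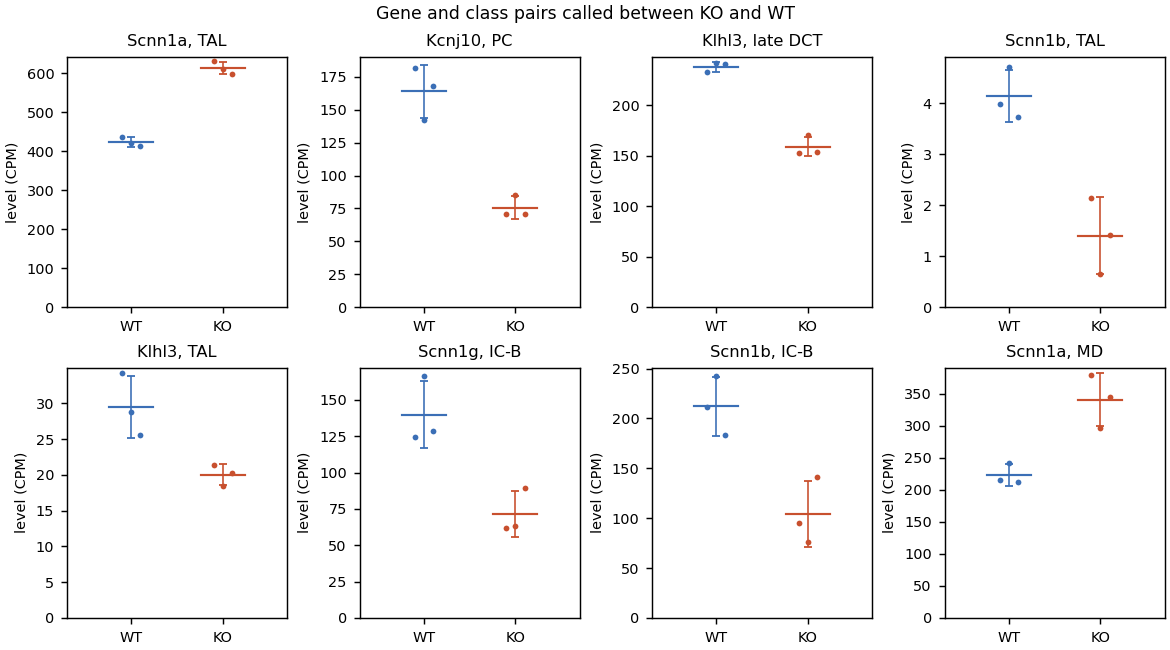
Level in CPM of the 8 called pairs of gene and class (MD, macula densa), where points are libraries, horizontal bars the mean and error bars the SD of 3 WT and 3 KO libraries, each axis starting at 0. In every panel the WT and KO points do not overlap, and *Scnn1b* in TAL lies under 5 CPM.

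The transporter NCC and its kinases were not called in any class by the edgeR test described above. Of 17 alternative settings, 1 called *Slc12a3* in TAL and 1 called it in CNT. In CNT, 1 of 17 also called *Wnk1* and 1 of 17 called *Stk39*. *Slc12a3* in early DCT was at 3013, 3465 and 2911 CPM in WT against 3767, 3589 and 3132 CPM in KO, which overlap (0.18 ± 0.10, adjusted p = 0.584, 95% interval -0.01 to 0.38). In late DCT it was at 2224, 2128 and 1931 CPM in WT against 1724, 1886 and 1442 CPM in KO (-0.31 ± 0.11, adjusted p = 0.283), and here no KO library reached the lowest WT library. In macula densa, at background levels, it was at 24.8, 57.9 and 45.0 CPM in WT against 18.4, 22.2 and 10.3 CPM in KO, without overlap (-1.35 ± 0.37, adjusted p = 0.0943), and it was called without WT replicate 1 (0.0258) and without the filter on low counts (0.00911). Whether the effect on *Slc12a3* differed between the 8 classes was tested and did not pass (adjusted p = 0.358).

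*Wnk1* in early DCT was at 1425, 1161 and 1343 CPM in WT against 1624, 1756 and 1543 CPM in KO, higher in every KO library but short of the threshold (0.35 ± 0.11, adjusted p = 0.163). The 4 late DCT markers that early DCT does not count among its own were also higher there in KO. They summed to 2160, 2135 and 2056 CPM in WT against 4487, 3847 and 3677 CPM in KO, and their part in the *Wnk1* values was not tested. In CNT 1 library decided the value: *Wnk1* was at 560.5, 144 and 513 CPM in WT replicates 1 to 3 against 669, 661 and 419 CPM in KO replicates 1 to 3, with a log2 fold change of 0.52 ± 0.35 that became 0.10 without WT replicate 2. The same library was low in CNT for *Wnk4* (67.3 CPM, against 157 and 122 CPM in WT replicates 1 and 3) and for the marker *Calb1* (858 CPM against 3663 and 3426 CPM), but not for *Scnn1b* (801 CPM, between WT replicates 1 and 3). *Wnk4* in early DCT was at 183, 191 and 203 CPM in WT against 217, 213 and 185 CPM in KO, which overlap (0.11 ± 0.11, adjusted p = 0.834).

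*Stk39* was higher in every KO library than in every WT library in CNT, at 136, 123 and 131 CPM in WT against 183, 164 and 177 CPM in KO (0.44 ± 0.13, adjusted p = 0.0893). Late DCT gave the same order, at 125, 134 and 119 CPM in WT against 152, 169 and 154 CPM in KO (0.33 ± 0.13, adjusted p = 0.339). Neither passed the threshold. PC showed no such order (-0.05), with 314, 237 and 237 CPM in WT against 267, 234 and 247 CPM in KO, and the joint fit called a difference between classes (adjusted p = 0.00557). In contrast, no difference between classes was called for *Wnk1* (0.518), *Wnk4* (0.565) or *Nedd4l* (0.288).

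*Nedd4l* was lower in KO in PC without overlap between groups, at 325, 385 and 331 CPM in WT against 253, 276 and 210.4 CPM in KO (-0.48 ± 0.14, adjusted p = 0.106). In CNT it was at 165, 218 and 140.5 CPM in WT against 148, 127 and 93.7 CPM in KO, which overlap (-0.49 ± 0.16, adjusted p = 0.147). In IC-A it was at 338, 324 and 313 CPM in WT against 249, 271 and 208 CPM in KO, without overlap (adjusted p = 0.399). None of these passed the threshold.

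The surrounding pathway was read from 40 further genes in 6 lists. Over the 8 classes 12 of 255 tests were called, 4 higher and 8 lower in KO. Calls numbered 3 of 34 genes in TAL (2 higher, 1 lower), 2 of 31 in late DCT (1 higher, 1 lower), 2 of 34 in CNT (1 higher, 1 lower), 1 of 31 in PC (lower), 1 of 32 in IC-A (lower) and 3 of 34 in IC-B (all lower), against backgrounds of 4.35%, 1.01%, 2.95%, 2.39%, 0.373% and 0.777%. In macula densa and early DCT edgeR called 0 of 27 and 0 of 32, with 5 and 6 at an unadjusted p under 0.05 and 0 by DESeq2. Over all genes of these classes, 598 of 6283 and 975 of 9276 had an unadjusted p under 0.05 by edgeR.

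Among WNK and SPAK partners, *Ppp1r1a*, an inhibitor of protein phosphatase 1 that favours phosphorylated NCC, was lower in KO in late DCT, at 348, 359 and 418 CPM in WT against 219.6, 282 and 216 CPM in KO (-0.65 ± 0.13, adjusted p = 0.0186). In CNT it was called as well, at 12.4, 7.16 and 15.9 CPM against 5.41, 1.61 and 2.76 CPM (-1.63 ± 0.41, adjusted p = 0.0445). The CNT levels rest on 150 UMIs over the 6 libraries, and whether they exceed background was not tested. The late DCT call was lost without either of WT replicates 1 and 3 or KO replicate 1 or 3 (adjusted p 0.0570 to 0.134), and the CNT call without WT replicate 1 or 3 or any 1 KO replicate (0.0534 to 0.151). In the 4 libraries that match the male label the late DCT call was lost (0.0725). This list of 10 partners had 2 calls in 61 tests.

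Of the proteases and inhibitors that act on ENaC, *Spint1*, an inhibitor of membrane serine proteases, was higher in KO in CNT, at 115, 139.6 and 100.4 CPM in WT against 188, 213 and 195 CPM in KO (0.76 ± 0.14, adjusted p = 0.00564). In TAL it was at 93.2, 106 and 98.5 CPM in WT against 138, 164 and 142 CPM in KO (0.57 ± 0.10, adjusted p = 0.00568). Both calls held with any 1 library left out, and they were the only calls in the 40 tests of this list.

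Of the genes that carry or limit the aldosterone signal, *Hsd11b2*, the enzyme that keeps glucocorticoids from the mineralocorticoid receptor and a PC marker here, was higher in KO in late DCT, at 507, 615 and 541 CPM in WT against 753, 831 and 786 CPM in KO (0.52 ± 0.11, adjusted p = 0.0329). In TAL, at 21.4, 19.0 and 20.7 CPM in WT against 10.3, 4.24 and 11.4 CPM in KO, it was lower (-1.21 ± 0.25, adjusted p = 0.0153). Podocytes held 17.7 ± 6.28 CPM of *Hsd11b2* and PC 6031 CPM, so the TAL values are read as background, and the PC markers together were lower in KO in TAL, as given above. *Tsc22d3*, a steroid-induced gene, was higher in TAL, at 8.87, 7.13 and 6.54 CPM in WT against 16.4, 12.4 and 10.1 CPM in KO (0.77 ± 0.20, adjusted p = 0.0496). These low levels rest on 387 UMIs over the 6 libraries, and whether they exceed background was not tested. The *Hsd11b2* call in late DCT was lost without either of WT replicates 1 and 3 or KO replicate 2 or 3 (adjusted p 0.105 to 0.210), and the *Tsc22d3* call without any 1 WT replicate or KO replicate 1 or 2 (0.0556 to 0.181), while *Hsd11b2* in TAL stayed under the threshold with any 1 library left out. In the 4 libraries that match the male label *Hsd11b2* in TAL (0.0557) and *Tsc22d3* (0.335) were not called. These were the 3 calls in 47 tests of this list.

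The sodium pump list (2 calls in 28 tests) and the list of potassium and chloride channels (3 calls in 38 tests) had calls in the lower direction only, and the other cotransporters had none by edgeR in 41 tests (4 at an unadjusted p under 0.05, 0 by DESeq2). Over all genes, the number with an unadjusted p under 0.05 by edgeR ranged from 603 of 7782 in IC-A to 1849 of 10788 in TAL. *Fxyd4*, a regulator of the sodium pump and also a PC marker here, was at 1364, 1230 and 1199 CPM in WT against 616, 571 and 705 CPM in KO in PC (-0.98 ± 0.13, adjusted p = 0.00320), a call that held with any 1 library left out. In IC-B the same gene was at 156, 236 and 139.5 CPM in WT against 55.3, 40.5 and 87.9 CPM in KO (-1.46 ± 0.25, adjusted p = 0.0197). *Kcnj1*, the luminal potassium channel ROMK, was at 124, 119.7 and 99.6 CPM in WT against 41.8, 40.0 and 68.4 CPM in KO in IC-B (-1.13 ± 0.20, adjusted p = 0.0205), and *Kcnj16*, whose Kir5.1 subunit pairs with Kir4.1, was at 127, 118 and 115 CPM in WT against 51.8, 42.3 and 72.5 CPM in KO (-1.04 ± 0.18, adjusted p = 0.0197). KO replicate 3 was the highest KO library for *Fxyd4* and *Kcnj1* in IC-B, as it was for *Scnn1b*, *Scnn1g* and the PC and CNT marker sums of that class, and the part of those markers was not tested. The calls in IC-B were lost without either of WT replicates 2 and 3 or KO replicate 1 or 2 (adjusted p 0.0546 to 0.132 over the 3 genes), and in the 4 libraries that match the male label (0.311 to 0.404).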

How the data were processed

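Renal cortex of 3 WT and 3 KO mice was dissociated and captured with BD Rhapsody, which tags each transcript 3′ end with a cell barcode and a UMI. The authors deposited raw UMI counts per gene and barcode, not normalised and with barcodes that hold no cell, made with the BD Rhapsody WTA pipeline on mm10 with a GENCODE annotation. The submitters' processing notes name Scanpy 1.8. 

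Barcodes with 500 to 60000 UMIs, 200 to 8000 genes and at most 50% mitochondrial UMIs were kept. The automatic Scrublet threshold marked fewer than 0.5% of cells in every library and was replaced by removal of the 6% with the highest scores. Cells were clustered in scanpy 1.11.5 (2000 variable genes without the 10 genes, 30 components, 15 neighbours, Leiden resolution 1.0), distal clusters were clustered again, and clusters were named by markers. Distal clusters whose best markers were those of a class outside the distal nephron stayed unnamed. So did clusters with fewer than 3 detected markers, fewer than 50 cells, or intercalated markers with *Aqp2* above 1000 CPM. Cells of 1 mouse are not replicates, so counts were summed per library and class and tested with edgeR 4.0.16 (TMM, filterByExpr with a minimum count of 10, glmQLFTest, two-sided, Benjamini-Hochberg). SE were derived from the F statistic. DESeq2 1.42.0 was an alternative. The statistics were tested on simulated data. Intervals are 95%. The study's labels name each mouse, so p-values measure the spread between 3 mice per group.

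All 10 genes are reported in every class, with the called genes of the lists (at most 2 in each direction per class) and, for each gene, the 3 genes with the highest correlation of class means. Some genes that this rule names are not reported here. *Kcnj16* is named in addition, chosen after its values were seen. The 10 genes and the lists were chosen with earlier results of these data known. Gene positions are from GENCODE vM21 on GRCm38, the build of mm10, matched by symbol. WT and KO mice share replicate numbers. Deviations of same-numbered libraries correlated at 0.197 at most, and the libraries were not treated as pairs. A mitochondrial limit of 30% was among the alternatives.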

Additional observations from a re-analysis of the deposited data

Results flagged for a closer look

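For 6 of the 10 genes the effect of the knockout differed between the 8 distal classes in the joint edgeR fit, by a test of all class-by-genotype terms with the mouse as a block. Over all genes in this fit, 720 of 11361 (6.34%) were called. The adjusted p was 2.73e-05 for *Kcnj10*, which was lower in KO in PC (-1.10) and not in TAL (0.41) on the log2 scale. It was 0.000529 for *Scnn1a*, higher in KO in TAL (0.53) and at -0.36 in CNT. It was 0.000731 for *Scnn1b*, with -0.96 in IC-B against 0.03 in late DCT, 0.0180 for *Scnn1g*, with -0.90 in IC-B against 0.06 in late DCT, 0.00557 for *Stk39*, with 0.44 in CNT against -0.16 in TAL, and 0.00945 for *Klhl3*, with -0.58 in late DCT against 0.06 in early DCT. Without the mouse as a block *Kcnj10* (0.00112) and *Scnn1b* (0.0164) were still called. In the fit of DCT, CNT and PC alone, *Kcnj10* (0.00011) and *Klhl3* (0.0094) were called. *Scnn1a*, *Scnn1b*, *Scnn1g* and *Stk39* were not called in that fit. No explanation was tested.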

How the results depend on the processing

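Of the 8 called pairs only *Kcnj10* in PC was called in every fit, and *Scnn1a* in TAL in all but 1, with 0.70 (adjusted p = 0.0532) at a mitochondrial limit of 30%. The number of calls was 8, 16 without a filter on low counts, 3 with a replicate block, 2 in the 4 libraries that match the male label, 3 at the limit of 30%, where macula densa, late DCT and IC-A were not run because a library had as few as 9, 4 and 4 cells, and 3 to 6 with 1 library left out. Deviations of same-numbered libraries correlated between -0.224 and 0.197 over the classes, and libraries did not in every case correlate best with their own number. Whether calls lost under the replicate block are weaker effects was not tested. With the block the log2 fold changes that lost their call were -0.58 for *Klhl3* in late DCT, 0.63 for *Scnn1a* in macula densa, -0.9953 and -0.91 for *Scnn1b* and *Scnn1g* in IC-B and -1.58 for *Scnn1b* in TAL. With a block for libraries with *Xist* they were -0.96 and -0.90 for *Scnn1b* and *Scnn1g* in IC-B. In the 4 libraries they were -0.52 and -0.60 for *Klhl3* in late DCT and TAL, 0.65 for *Scnn1a* in macula densa, -0.76 and -0.64 for *Scnn1b* and *Scnn1g* in IC-B and -1.79 for *Scnn1b* in TAL. With classes from marker scores they were -0.83 for *Klhl3* in late DCT, 0.52 for *Scnn1a* in macula densa and -0.92 and -0.85 for *Scnn1b* and *Scnn1g* in IC-B. *Klhl3* in TAL was -0.92 at the limit of 30% and -0.51 without clusters of low UMI count, a setting chosen after seeing the data. *Scnn1a* in macula densa was 0.64 with DESeq2, 0.61 without doublet removal and 0.55 with equal cells per library, where *Scnn1b* in IC-B was -0.91. The cause was not tested.

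With 1 library left out the fold changes ran from -1.21 to -1.03 for *Kcnj10* in PC, -0.63 to -0.52 and -0.64 to -0.45 for *Klhl3* in late DCT and TAL, 0.56 to 0.73 and 0.52 to 0.54 for *Scnn1a* in macula densa and TAL, -1.26 to -0.78 and -1.89 to -1.26 for *Scnn1b* in IC-B and TAL, and -1.12 to -0.77 for *Scnn1g* in IC-B. Signs turned for uncalled pairs: *Wnk1* in CNT was -0.0773 with marker scores, *Klhl3* in early DCT ran from -0.059 to 0.19 and *Scnn1a* in PC from -0.27 to 0.0845 with 1 library left out. Pathway calls numbered 12, 22 without the filter, 5 in the 4 libraries, 5 at the limit of 30% and 5 to 10 with 1 library left out. Of the 10 genes, those with an effect that differed between classes numbered 6, 2 in DCT, CNT and PC alone and 2 without the mouse as a block. Over all genes, 720 of 11361, 326 of 10497 and 245 of 11361 were called in these fits. At the limit of 30%, levels in early DCT were 5259 CPM for *Slc12a3*, 312 CPM for *Wnk4* and 413 CPM for *Klhl3*. With marker scores *Scnn1g* in CNT was at 454 CPM and *Wnk1* in late DCT at 1374 CPM. Macula densa and late DCT rest on the fewest cells.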
